A study of Mus musculus with 27 samples.

Results

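CpG methylation over the bodies of 38 mouse Hox genes was followed along the 4 Hox clusters, from naive embryonic stem cells (ESC, D0) to epiblast-like cells (EpiLC, D1 and D2). The members were taken by position, not by any measured value. A window of the deposited genome-wide table was included if it overlapped the GRCm38 body of a member gene by at least 1 bp, which gave 196 of 453245 windows, 195 of them with a value in every library. A window is a stretch named as holding 100 CpGs, so its length in bp varies and a shorter window is denser in CpGs. The HoxA cluster lies on chromosome 6 (52 windows over 10 genes), HoxB on chromosome 11 (53 windows, 10 genes), HoxC on chromosome 15 (41 windows, 9 genes) and HoxD on chromosome 2 (50 windows, 9 genes). The bodies annotated for Hoxa3, Hoxb3 and Hoxd3 run across neighbouring Hox genes and share 10, 4 and 4 windows with them. Some adjoining genes, such as Hoxc4 and Hoxc5, also share a window. In all, 22 windows belong to more than 1 member, and each was counted once in every count of windows.

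The libraries are whole-genome bisulfite sequencing of 3 cell lines, each on 3 days with 3 libraries a day, 27 libraries in 9 groups. TET_KO (genotype TET1/2/3_KO) lacks, by triple knock-out, the genes Tet1, Tet2 and Tet3, which encode the dioxygenases that oxidise methylated cytosine and so start its removal, and TET_WT is its parental wild-type line. The other wild-type line, DNMT_WT, is the parent of a Dnmt1, Dnmt3a and Dnmt3b triple knock-out that was not analysed here. All lines were kept as ESC in 2i/Lif, a medium that holds mouse cells in the naive state (D0), and then differentiated to EpiLC (D1, D2). TET_KO is 1 knock-out line, so an effect of the line cannot be told apart from an effect of the genotype. The labels do not say that the 3 libraries of a group came from separate cultures, so p-values measure only the spread between these libraries, which may be technical. A methylation table holds no expression, so the labelled cell types could not be checked against marker genes. Bisulfite reads do not separate methylated from hydroxymethylated cytosine, and in bulk cells a few fully methylated cells cannot be told apart from many partly methylated ones.

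Hox genes encode homeodomain transcription factors that give body segments their identity along the head-to-tail axis. Genes with low numbers (anterior paralogs) sit at one end of each cluster and are switched on first and nearest the head, and those with high numbers (posterior paralogs) sit at the other end and are switched on last. In embryonic stem cells the clusters are silent but poised, covered by Polycomb repressive complexes and packed with CpG islands, which as a class escape the wave of DNA methylation that accompanies the passage from naive to primed pluripotency. TET enzymes occupy many such islands, and the DNMT3 enzymes bring the new methylation.

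The sequences before the start sites give an idea of how unevenly CpGs are spread. The 250 bases before the annotated start were taken from RefSeq (GRCm38.p6), which matched 22 of the 38 members with 24 promoters. These held a median of 12.5 CpGs, from 2 to 35, against a median of 6 over all 32851 promoters of the same length. The motif searched was the dinucleotide CG, which reads the same on both strands, and 92.1% of all promoters hold it at least once. Below, 5 promoters are shown because they cover the range from CpG-rich to CpG-poor and from unmethylated to methylated. They are Hoxa13 (chr6:52260881-52261130, minus strand), Hoxd1 (chr2:74762730-74762979, plus strand), the more upstream of the Hoxd11 promoters (chr2:74679308-74679557, plus strand), Hoxa7 (chr6:52218574-52218823, minus strand) and Hoxd4 (chr2:74721728-74721977, plus strand). Each reads 5′ to 3′ on the strand of the gene, with every CG in capitals.
Hoxa13: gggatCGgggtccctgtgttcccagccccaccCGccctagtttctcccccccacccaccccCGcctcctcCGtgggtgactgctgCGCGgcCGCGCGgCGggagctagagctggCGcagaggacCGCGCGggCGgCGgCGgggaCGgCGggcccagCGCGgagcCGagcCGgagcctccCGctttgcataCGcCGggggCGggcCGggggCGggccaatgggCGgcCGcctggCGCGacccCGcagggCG
Hoxd1: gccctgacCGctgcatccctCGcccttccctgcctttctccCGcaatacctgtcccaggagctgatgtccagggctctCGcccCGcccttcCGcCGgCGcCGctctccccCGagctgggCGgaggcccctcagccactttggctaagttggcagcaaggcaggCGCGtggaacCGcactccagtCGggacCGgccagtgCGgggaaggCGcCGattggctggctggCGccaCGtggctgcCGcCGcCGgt
Hoxd11: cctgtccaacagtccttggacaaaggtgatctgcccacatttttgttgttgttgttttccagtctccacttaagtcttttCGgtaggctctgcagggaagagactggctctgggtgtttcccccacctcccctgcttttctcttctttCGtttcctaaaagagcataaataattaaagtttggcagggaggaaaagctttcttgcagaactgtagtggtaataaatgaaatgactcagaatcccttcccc
Hoxa7: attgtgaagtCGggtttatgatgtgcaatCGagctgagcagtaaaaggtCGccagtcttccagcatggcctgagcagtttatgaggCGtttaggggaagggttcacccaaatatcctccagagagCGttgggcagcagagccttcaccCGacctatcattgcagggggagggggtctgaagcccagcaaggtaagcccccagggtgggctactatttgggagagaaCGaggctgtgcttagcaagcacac
Hoxd4: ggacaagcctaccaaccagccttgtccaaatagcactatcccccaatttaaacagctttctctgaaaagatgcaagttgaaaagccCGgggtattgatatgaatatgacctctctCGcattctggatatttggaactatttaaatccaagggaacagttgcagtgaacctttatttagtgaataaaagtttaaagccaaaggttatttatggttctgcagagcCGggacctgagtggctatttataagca

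In 4 of these 5 promoters the window that held the start site was low with many CGs or high with few. They were chosen to cover both ranges, so this count is no support for a link of CpG density with level. Promoters not shown varied more: with 20 CGs each, windows stood at 16.1% (Hoxa10), 2.25% (Hoxd10) and 0 (Hoxd11) in TET_WT on D2. The Hoxa13 promoter, of a gene needed for digits and the hindgut, has 35 CGs, and its 522 bp window was at 0.0717% in TET_WT and 2.88% in TET_KO on D2. The Hoxd1 promoter has 24 CGs, and its 387 bp window stood at 0.214% and 0.305%. With 7 and 3 CGs, the Hoxa7 and Hoxd4 promoters lie in windows of 2119 and 3397 bp that reached 46.4% and 48.5% in TET_WT and 66.6% and 71.0% in TET_KO. The Hoxd11 promoter shown is the exception: with only 2 CGs it lies in a 1091 bp window that stood at 0.601% in TET_WT and 5.49% in TET_KO. Member start windows with at least 12.5 CGs (12 windows, median length 775.5 bp) had a median of 1.83% in TET_WT and 6.49% in TET_KO on D2. Over the 8551 start windows of all promoters with as many CGs (median length 767 bp) these medians were 0.994% and 1.68%. The difference between the members and the other promoters was not tested.

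Hox bodies were low in methylation in every group. Averaged over the 196 windows, methylation in TET_WT was 5.15% ± 0.109 (SD, n = 3 libraries here and below) on D0, 7.26% ± 0.422 on D1 and 13.5% ± 0.585 on D2. TET_KO stood at 18.3% ± 0.398, 20.7% ± 0.160 and 25.3% ± 0.261. DNMT_WT stood at 1.15% ± 0.0711, 5.54% ± 0.0778 and 16.4% ± 0.124. The libraries of no 2 of the 9 groups overlapped on this mean. Knock-out cells in the naive state (18.0% to 18.7% per library) had more methylation over the Hox bodies than any D2 library of either wild-type line (13.1% to 14.2% in TET_WT, 16.3% to 16.5% in DNMT_WT). Over all windows of the genome, the naive TET_KO libraries (50.9% to 53.0%) overlapped those of TET_WT on D2 (50.5% to 55.4%) and lay above those of DNMT_WT on D2 (49.1% to 49.9%). The 55.4% belongs to replicate 2 of TET_WT on D2, which also gave the highest Hox mean of its group (14.2%).

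The low average covers a mixture of unmethylated and methylated windows. On D2, 80 of the 196 Hox windows (40.8%) in TET_WT and 50 (25.5%) in TET_KO had a mean under 5%, against 4.07% and 3.43% of all windows. Levels of 50% or more were reached by 2 Hox windows (1.02%) in TET_WT and 36 (18.4%) in TET_KO, against 62.4% and 89.8% of all windows. In DNMT_WT, 195 of the 196 windows were under 5% on D0 and 60 were on D2. The windows differ by their CpG density as well: the median Hox window was 1451 bp long and the median window of the genome 5050 bp, a difference that bears on every comparison below and is taken up with the window classes.

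**Figure D1:**
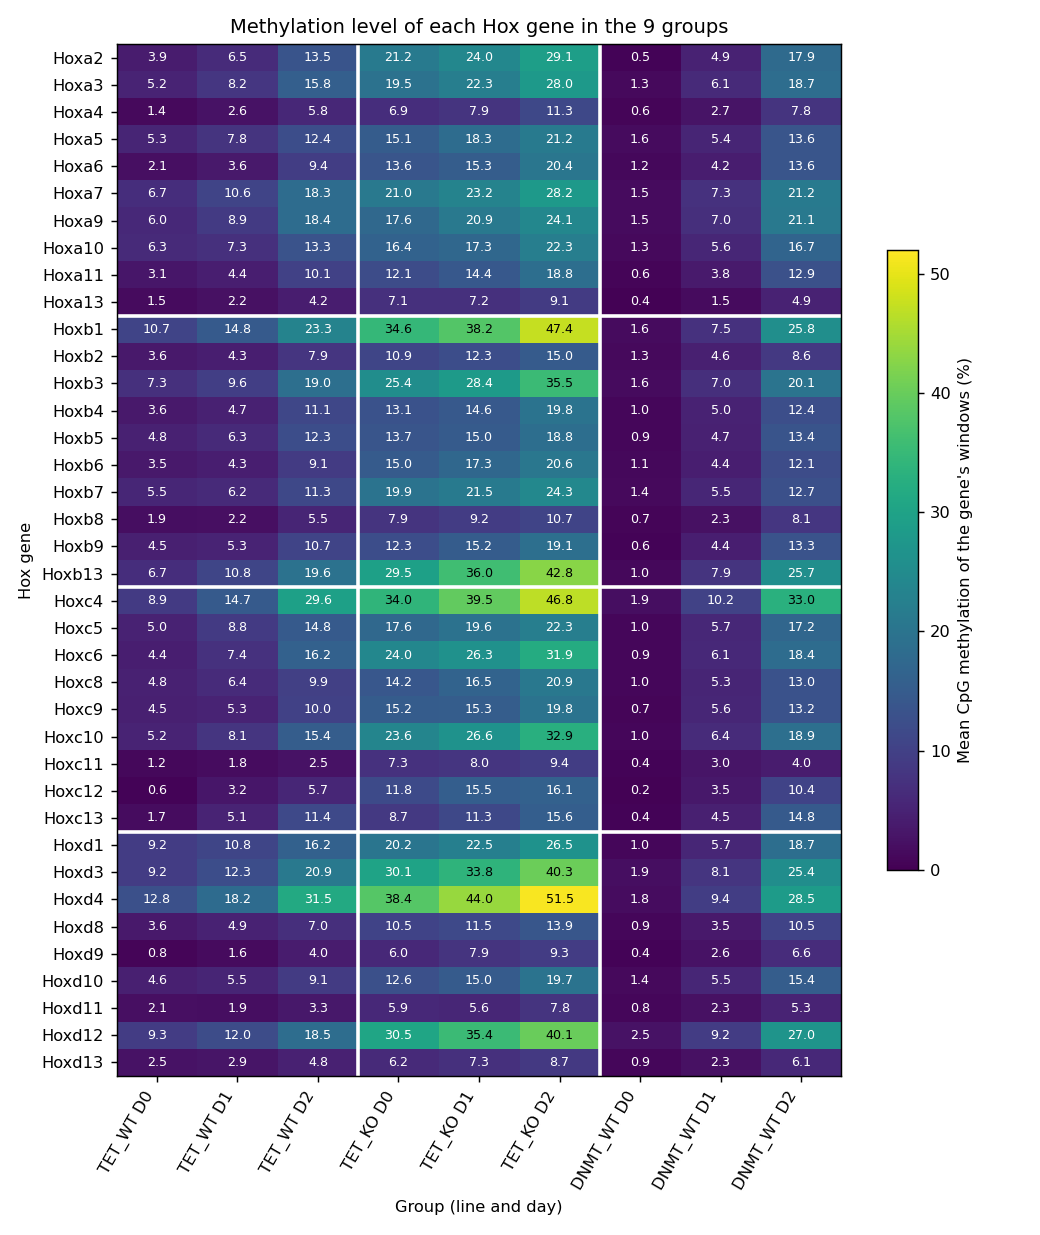
Mean methylation (percent, colour) of the windows over each of the 38 Hox gene bodies (rows, by cluster and paralog number) in the 9 groups (columns, mean of 3 libraries). Hoxd4, Hoxb1 and Hoxc4 are the rows with the highest level in TET_KO on D2 (51.5%, 47.4% and 46.8%), and Hoxd11 is the lowest (7.76%).

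Gene by gene, the level of a body is the mean of its windows, given here as a description. On D2 in TET_KO it ran from 51.5% ± 1.35 for Hoxd4, which patterns the cervical vertebrae, down to 7.76% ± 0.200 for Hoxd11, which patterns the forearm. After Hoxd4 came Hoxb1, the gene that sets the identity of a hindbrain segment, at 47.4% ± 2.28 and Hoxc4, another cervical gene, at 46.8% ± 0.406. Next were Hoxb13, which lies apart from the rest of its cluster and acts in the tail and prostate, at 42.8% ± 0.986, Hoxd3 at 40.3% ± 0.558 and Hoxd12 at 40.1% ± 3.19. At the low end, Hoxd13 and Hoxa13, the paralogs that build the digits, stood at 8.66% ± 0.998 and 9.09% ± 0.418, beside Hoxd9 at 9.26% ± 0.0550 and Hoxc11 at 9.41% ± 0.876. Of the 37 neighbouring pairs in this order, 26 had overlapping libraries, so most adjacent ranks are not separated by these data. Libraries were separate between Hoxd4 and Hoxb1, between Hoxc4 and Hoxb13 and between Hoxb13 and Hoxd3.

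TET_WT on D2 had the same gene at the top and another at the bottom. Hoxd4 stood at 31.5% ± 2.12 and Hoxc4 at 29.6% ± 1.01, whose libraries overlapped, and Hoxb1 followed at 23.3% ± 1.22. Hoxc11, which acts in the hindlimb and kidney, was lowest at 2.51% ± 0.274, below Hoxd11 at 3.30% ± 0.152. In this group 30 of the 37 neighbouring pairs overlapped. All 38 genes had every TET_KO library above every TET_WT library on D0 and again on D2, but after centring, in which a library's median over all windows was subtracted from its values, 38 genes on D0 and 32 on D2 had every TET_KO library lower, and 1 on D2 had every one higher. For 32 genes even the naive TET_KO libraries all lay above the TET_WT libraries of D2, and for 25 genes after centring. The 1 gene with the opposite order on the percent scale was Hoxc13, a gene of hair and nails, at 8.67% ± 0.640 in TET_KO on D0 and 11.4% ± 0.613 in TET_WT on D2. Between the wild-type lines, 37 genes were lower in every DNMT_WT library on D0 and 20 on D1, where 1 was higher, whereas after centring all 38 were higher on both days. That centred direction was largely fixed by the low levels of the Hox bodies, as described with the windows below. On D2, 27 genes were higher in every DNMT_WT library, 37 after centring, and 1 gene, Hoxd4, was lower (28.5% ± 1.36 against 31.5% ± 2.12), which it was not after centring. No such count was made over all genes. Among all tested windows, 92.9% were called higher in TET_KO on D0 and 84.3% on D2, by the rule given below. In DNMT_WT, 88.9% were called lower on D0 and 85.6% on D1, and on D2 1.78% higher and 10.5% lower. These gene levels depend on how windows are averaged: the median of the 38 levels in TET_KO on D2 was 20.7% as a plain mean over windows, 26.0% when windows were weighted by overlap and 1.93% when each gene was represented by its shortest window.

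**Figure D2:**
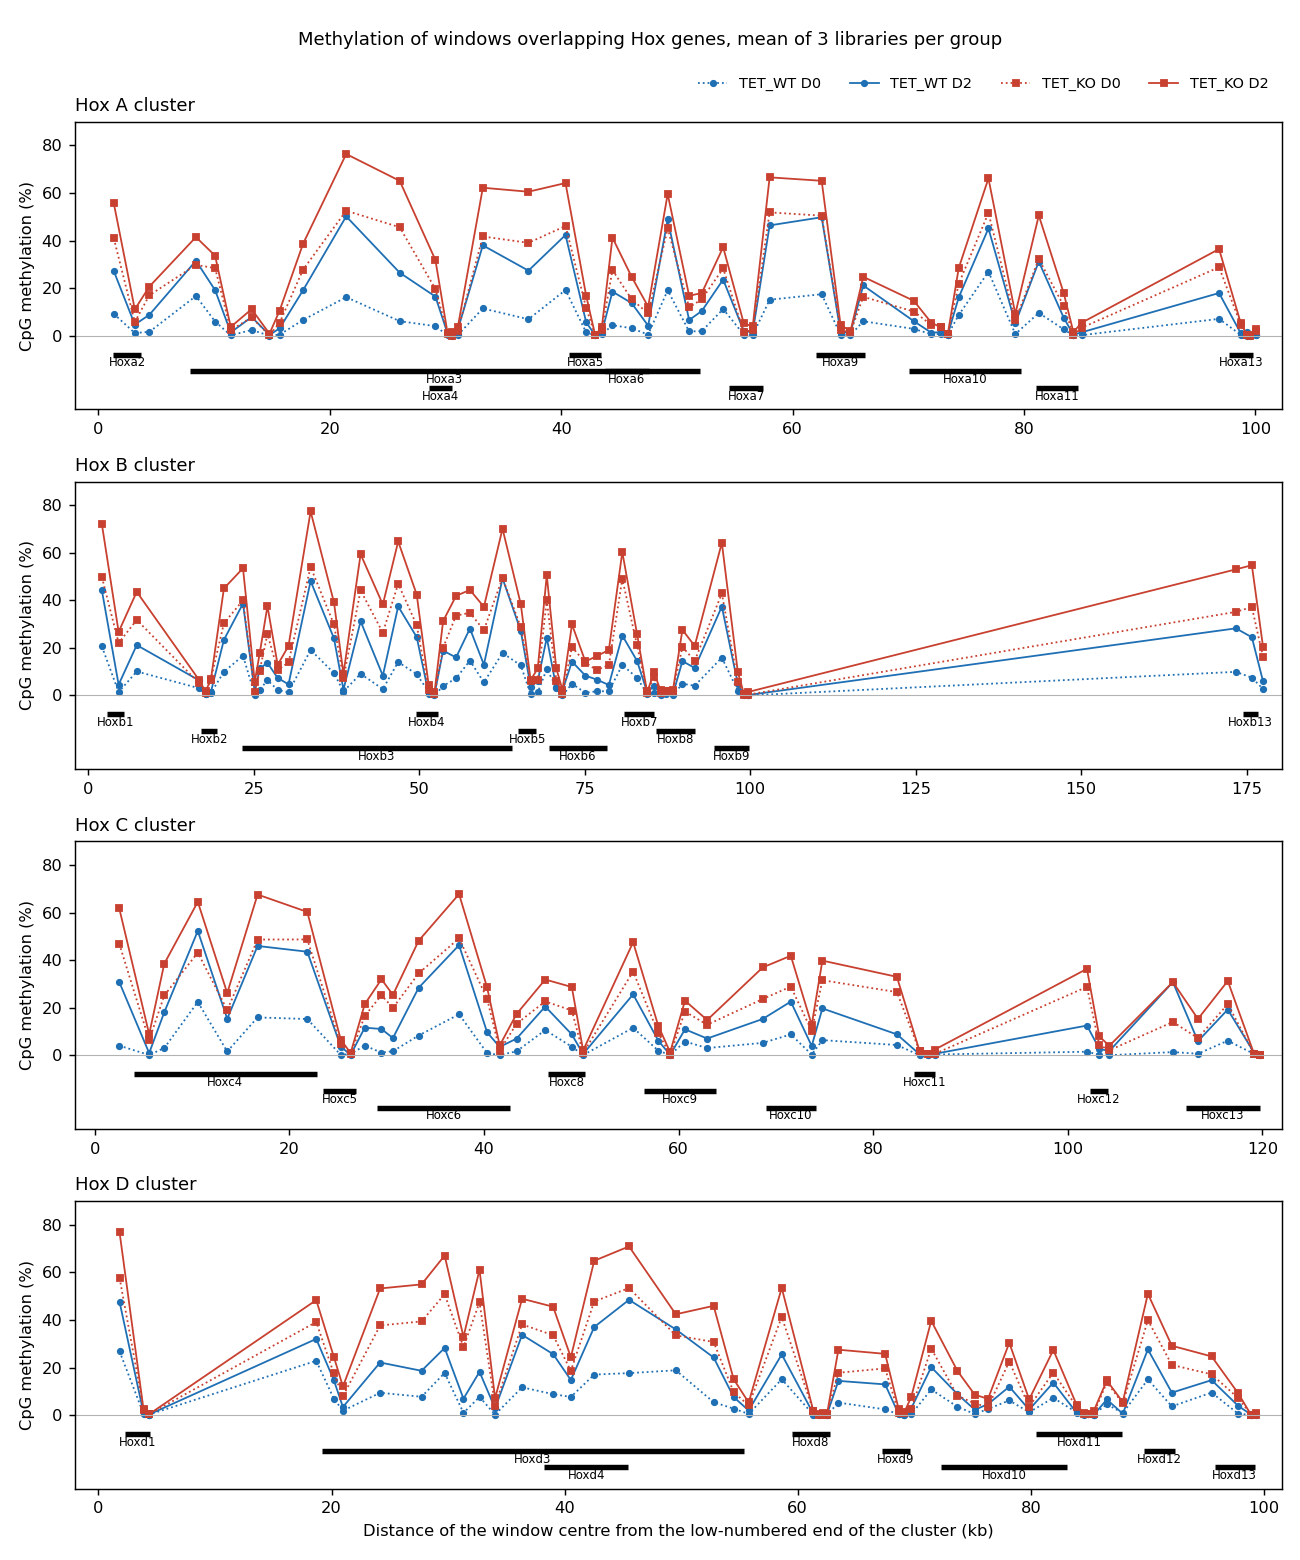
Mean methylation (percent, 3 libraries) of each Hox window along its cluster, for TET_WT and TET_KO on D0 and D2, with gene bodies as bars. Distance in kb is taken from the end that holds the lowest-numbered gene, so HoxB, HoxC and HoxD run against the genome coordinates. Each cluster alternates between windows near 0 and peaks, with TET_KO on D2 reaching 76.4% in HoxA, 77.5% in HoxB, 67.8% in HoxC and 76.9% in HoxD.

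Along each cluster the level jumped between neighbouring windows. Of 177 pairs of adjacent Hox windows, 87 differed by 20 points or more in TET_KO on D2 and 26 by 40 points or more. In TET_WT on D2 these counts were 45 and 6. The median step was 19.7 points in TET_KO and 11.4 points in TET_WT. Cluster averages hid this and were alike: on D2 in TET_WT, HoxA stood at 13.8%, HoxB at 14.3%, HoxC at 13.7% and HoxD at 12.3%, and in TET_KO at 23.9%, 27.7%, 25.3% and 24.1%.

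HoxA (chr6:52161104-52261375, 100.3 kb) has its anterior genes at the low coordinates. Its highest window in both TET lines on D2 lay in the long annotated body of Hoxa3, a gene of the throat and thymus (chr6:52180108-52184951, 4844 bp). It stood at 47.2%, 50.2% and 53.1% in the TET_WT libraries and 77.6%, 75.3% and 76.4% in TET_KO. Every TET_KO library was above every TET_WT library. In the same body, a 395 bp window shared with Hoxa5, a gene of the lung (chr6:52203847-52204241), was the lowest of the cluster in TET_KO at 0.236%. Hoxa7 and Hoxa9, genes best known for driving leukaemia with MLL fusions, each had 1 peak. The Hoxa7 peak (chr6:52218062-52220180), which holds the start site printed above, was at 43.9%, 52.0% and 43.2% in TET_WT and 69.4%, 62.7% and 67.6% in TET_KO on D2. Toward the posterior end, Hoxa10 and Hoxa11, genes of the uterus and limb, averaged 22.3% and 18.8% in TET_KO, and the cluster ended at Hoxa13 with the lowest window of TET_WT (0.0717%).

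HoxB (chr11:96192798-96371114, 178.3 kb) starts with Hoxb13 and ends with Hoxb1. The highest TET_KO window lay in Hoxb3 (chr11:96335047-96340016, 4970 bp), at 78.2%, 78.2% and 75.9% on D2 against 45.3%, 52.3% and 46.8% in TET_WT. No library of either line reached into the other's range. A second Hoxb3 window (chr11:96306738-96310328, 3591 bp) was the highest of TET_WT, at 47.3%, 56.5% and 44.0%, the 56.5% being replicate 2. The lowest windows lay at Hoxb9, a thoracic gene, in adjacent stretches of 575 and 700 bp at 0.180% in TET_WT and 0.753% in TET_KO. Hoxb8, which can immortalise blood progenitors, was the lowest body of the cluster in both lines (5.46% and 10.7%). Hoxb4, which expands blood stem cells, stood at 11.1% and 19.8%, and Hoxb2, of the hindbrain, at 7.94% and 15.0%.

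HoxC (chr15:102920931-103040912, 120.0 kb) has no anterior members, and its highest body was Hoxc4, the gene nearest the anterior end. On D2 in TET_WT, Hoxc13, Hoxc12 and Hoxc11 stood at 11.4%, 5.67% and 2.51%, the thoracic and motor-neuron genes Hoxc10, Hoxc9 and Hoxc8 at 15.4%, 9.98% and 9.94%, and Hoxc6, Hoxc5 and Hoxc4 at 16.2%, 14.8% and 29.6%. In TET_KO the last 3 were 31.9%, 22.3% and 46.8%. The highest TET_WT window of any cluster lay in Hoxc4 (chr15:103027873-103032739, 4867 bp), at 51.9%, 55.0% and 50.1%. The highest in TET_KO lay in Hoxc6 (chr15:103001351-103005572, 4222 bp), at 64.8%, 69.1% and 69.6%. The low extremes were a 693 bp window of Hoxc5 in TET_WT (0.155%) and a 547 bp window of Hoxc13 in TET_KO (0.245%).

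HoxD (chr2:74667890-74767420, 99.5 kb) held the gene body with the highest mean of the 4 clusters in TET_WT and TET_KO on D2, Hoxd4, and in TET_KO also the lowest. In TET_WT the libraries of Hoxd4 overlapped those of Hoxc4, and in DNMT_WT on D2 Hoxc4 stood first at 33.0% ± 1.11, above every Hoxd4 library. From Hoxd13 to Hoxd8 the bodies stood between 3.30% (Hoxd11) and 9.11% (Hoxd10) in TET_WT on D2, with Hoxd12 apart at 18.5%. Beyond Hoxd8, Hoxd4 and Hoxd3 were at 31.5% and 20.9%, and Hoxd1, which acts in pain-sensing neurons, at 16.2%. Hoxd1 showed the steepest step: in TET_KO on D2 its 2.19% window was followed by a 3627 bp window (chr2:74763794-74767420) at 78.1%, 78.4% and 74.3%. In the TET_WT libraries that window stood at 46.3%, 52.4% and 44.3%. A 329 bp window of Hoxd9 was listed at 0 in all 3 TET_WT libraries of D2, and a 383 bp window of Hoxd8 in all 3 TET_KO libraries.

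**Figure D3:**
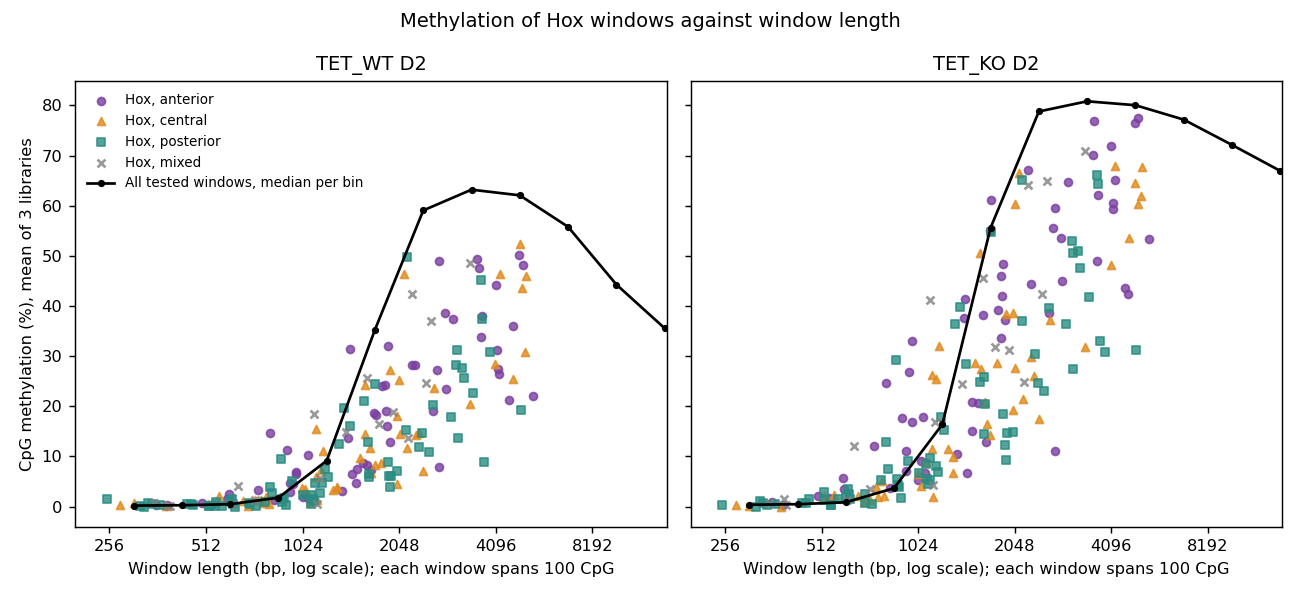
Mean methylation (percent) of each Hox window on D2 in TET_WT and TET_KO against window length in bp (log axis), with the median of all tested windows in bins of length as a line. Hox windows of 3 kb and longer reach 52.3% in TET_WT and 77.5% in TET_KO and all 34 lie below the median of their bin. So do 88 of the 99 windows of 1 to 3 kb in TET_WT and 84 in TET_KO. Those under 1 kb reach 14.7% and 32.9%, and 36 of 62 in TET_WT and 46 in TET_KO lie above the median of their bin.

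Window length, the inverse of CpG density, went with the level in every group. Across the 196 windows Spearman's rho between length and level ran from 0.776 in DNMT_WT on D0 to 0.887 in TET_WT on D2, a description of windows that share libraries and lie side by side. Over all tested windows rho lay between -0.255 and 0.0253, but these include many windows longer than the longest Hox window (5352 bp). In TET_WT on D2 the bin medians of all windows also rose with length, from 0.189% near 304 bp to 63.2% near 3444 bp. Beyond that they fell, to 35.6% near 13777 bp. The 2 ranges of rho are therefore not like for like. Under 1 kb, the medians over Hox windows and over all windows were 0.780% and 0.440% in TET_WT and 2.06% and 0.750% in TET_KO on D2, with single Hox windows as high as 14.7% and 32.9%. At 1 to 3 kb the medians were 11.6% over Hox bodies against 54.3% over all windows in TET_WT and 25.4% against 75.3% in TET_KO. This class is not even in length, with a median of 1668 bp for Hox windows and 2402 bp for all. Set against all windows in the same narrow bin of length, where the bin medians for these Hox windows centre on 35.3% in TET_WT and 55.6% in TET_KO, 88 and 84 of the 99 Hox windows were lower and 11 and 15 higher. Under 1 kb most went the other way: 36 of 62 Hox windows in TET_WT and 46 in TET_KO were above the median of their bin, and 26 and 16 below. At 3 kb and longer the class medians were 31.2% against 57.2% in TET_WT and 59.9% against 77.5% in TET_KO. The median of naive TET_KO exceeded that of TET_WT of D2 over Hox windows at 1 to 3 kb (median 18.6% against 11.6%) and at 3 kb and longer (41.5% against 31.2%). Over all windows these pairs were 55.5% against 54.3% and 56.4% against 57.2%.

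The paralog class of a window went with the level too. Windows of anterior genes (paralogs 1 to 3, 58 windows) averaged 18.4% in TET_WT and 34.8% in TET_KO on D2. Those of central genes (paralogs 4 to 8, 49 windows) averaged 13.4% and 24.3%, and those of posterior genes (paralogs 9 to 13, 71 windows) 9.20% and 17.8%. The 18 windows shared between classes were left out. The class follows the paralog number of the gene, not the place of the window. Most anterior windows belong to Hoxa3, Hoxb3 and Hoxd3 (25, 20 and 18 windows, 10, 4 and 4 of them shared). The annotated bodies of these genes run across neighbouring Hox genes. The classes differed in window length, with medians of 1720, 1601 and 1117 bp. Among windows of 1 to 3 kb, whose median lengths were 1731, 1656 and 1644 bp, the order held at 17.0%, 12.1% and 10.8% in TET_WT and 33.8%, 24.6% and 22.0% in TET_KO. Among windows of 3 kb and longer the anterior and central means were alike in TET_WT (36.6% and 36.7%) and the posterior mean was lower (26.4%), and in TET_KO the 3 means were 62.4%, 57.0% and 45.2%. Of the windows under 1 kb, the anterior ones stood at 11.1% in TET_KO and the others at 1.84% and 3.49%. Median lengths were less even here, at 4149.5, 4757 and 3485 bp for 3 kb and longer and 811, 679.5 and 613.5 bp under 1 kb. Neighbouring windows are not independent, and no test was made of these orders.

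Day by day, Hox windows were set beside all windows. A window was called if its difference reached 10 points and its p, adjusted by Benjamini-Hochberg, was under 0.05 (limma). Most of the genome moved in the same direction, so each count is followed by the share of all tested windows called that way and by the counts after centring. Centring asks whether a window moved more or less than its genome (for TET_KO less TET_WT on D0, it took the median difference over all windows from 27.5 to -2.84 points). Of the 56 window differences that are the 4 largest calls of each of the 14 comparisons, 9 were still called in the same direction after centring. Another 36 were no longer called, and 11 changed sign without reaching 10 points, so they were not called either. From D0 to D1, 4 of the 195 tested Hox windows rose in TET_WT (27.6% of all windows), 22 in DNMT_WT (49.0%) and 4 in TET_KO (20.1%). After centring, 2, 28 and 4 were instead lower (0.220%, 2.99% and 0.216% of all windows). The median Hox change was 0.920 points for TET_WT, 3.23 for DNMT_WT and 1.56 for TET_KO, against 7.75, 9.79 and 7.83 over all windows.

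Windows of Hoxa7, Hoxa3 and Hoxc4 with Hoxc5 were among the 4 largest early rises in both wild-type lines. The Hoxa7 peak went from 13.2%, 15.5% and 16.6% to 26.6%, 26.2% and 32.3% in TET_WT, with no overlap between days. The rise of 13.3 ± 2.66 (SE) points had an adjusted p of 1.50e-04 (limma, Benjamini-Hochberg). The Hoxa3 window of 4844 bp rose by 13.1 ± 1.87 points in TET_WT, by 15.5 ± 1.87 in DNMT_WT and by 11.3 ± 1.87 in TET_KO. A Hoxc13 window (chr15:102928156-102932078, 3923 bp) went from 1.35% to 12.6% in TET_WT, a rise of 11.3 ± 1.69 points, and its D1 libraries (11.5%, 10.7% and 15.7%) all lay above those of D0. A window shared by Hoxc4 and Hoxc5 (chr15:103016582-103021531, 4950 bp) rose by 10.2 ± 2.25 points in TET_WT and 14.7 ± 2.25 in DNMT_WT. Several of these lie so near the limit of 10 points that 1 library decides the call. Without replicate 3 of TET_WT on D1 the Hoxc13 rise was 9.72 points, and the Hoxc4 and Hoxc5 rise was 8.03, 8.75 or 8.72 points without TET_WT replicate 3 of D0, replicate 1 of D1 or replicate 3 of D1. In TET_KO, a Hoxb13 window (chr11:96194452-96196173) rose by 11.4 ± 1.77 points (9.36 without D0 replicate 1). The Hoxa3 rise in TET_KO was 9.37 without D0 replicate 2. Both Hoxb3 windows named above also rose in TET_KO, the 3591 bp one by 11.0 ± 2.29 (9.80 without D0 replicate 2) and the 4970 bp one by 10.4 ± 2.04 (9.86 without D0 replicate 3 and 8.46 without D1 replicate 3).

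From D1 to D2, 45 of 195 Hox windows rose in TET_WT (88.0% of all windows), 88 in DNMT_WT (94.9%) and 27 in TET_KO (65.8%). After centring the direction turned, with 161, 181 and 87 windows lower (17.8%, 25.4% and 4.89% of all windows), so these windows gained less than the median window of their genome. The median Hox gain was 3.88, 8.27 and 3.64 points against 20.4, 39.2 and 11.6 over all windows. By cluster, the 45 windows of TET_WT lay 16 in HoxA, 14 in HoxB, 10 in HoxC and 5 in HoxD, and the 88 of DNMT_WT were spread 22, 24, 18 and 24. By length, TET_WT calls were 0 of 62 windows under 1 kb, 21 of 99 at 1 to 3 kb and 24 of 34 at 3 kb and longer. The shares of all windows called in these classes were 1.56%, 75.3% and 93.8%.

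The Hoxb3 window of 3591 bp had the largest D1 to D2 gain among Hox windows in TET_WT, from 23.3%, 23.7% and 21.0% to 47.3%, 56.5% and 44.0%. The days did not overlap, and the gain was 26.6 ± 2.29 points (adjusted p 1.85e-11, limma with Benjamini-Hochberg adjustment). A window shared by Hoxd3 and Hoxd4 (chr2:74720196-74723592), which holds the Hoxd4 start printed above, gained 23.8 ± 2.60 points. Another Hoxb3 window (chr11:96322797-96325802) gained 22.7 ± 2.34, and a Hoxa9 window (chr6:52222536-52224699) 22.6 ± 2.29. In DNMT_WT the gains were larger, 35.3 ± 2.04 in the 4970 bp window of Hoxb3, 35.2 ± 2.33 in the 3627 bp window of Hoxd1, 34.6 ± 2.29 in Hoxa9 and 33.8 ± 2.60 in the Hoxd3 and Hoxd4 window. After centring these 4 turned negative, from -5.19 to -6.63 points. In TET_KO the largest gains lay in Hoxa3 (chr6:52196200-52200357, 15.3 ± 1.57, and chr6:52185057-52189249, 14.8 ± 2.45), in the 4222 bp window of Hoxc6 (15.2 ± 2.24) and in Hoxb1 (chr11:96367020-96371114, 15.1 ± 2.08).

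TET_KO exceeded TET_WT over Hox bodies on each day. On D0, 103 of 195 windows were higher (92.9% of all windows), on D1 51.8% of the 195 were (92.6%) and on D2 94 (84.3%). After centring most calls turned: 1 window was higher (3.69% of all windows) and 135 were lower (19.2%) on D0, 1 was higher (2.76%) and 135 were lower (19.8%) on D1, and 8 were higher (8.47%) and 105 were lower (18.0%) on D2. The median difference over Hox windows was 10.6, 11.1 and 9.81 points, against 27.5, 27.4 and 17.9 points over all windows. By cluster the D0 calls were 25 in HoxA, 31 in HoxB, 24 in HoxC and 23 in HoxD. By paralog class they were 39 of 58 anterior windows, 28 of 49 central and 25 of 70 posterior, with median differences of 20.3, 12.1 and 5.22 points. Of the 18 windows shared between classes, 11 were called. The classes differ in window length (medians of 1720, 1601 and 1117 bp), and calls by class were not matched for length. By length they were 5 of 62 windows under 1 kb, 64 of 99 at 1 to 3 kb and all 34 of 3 kb and longer, against 4.69%, 81.0% and 98.6% of all windows in these classes. In the longest class the median difference on D0 was 26.7 points over Hox bodies and 27.9 over all windows, and on D2 22.4 against 18.9.

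**Figure D4:**
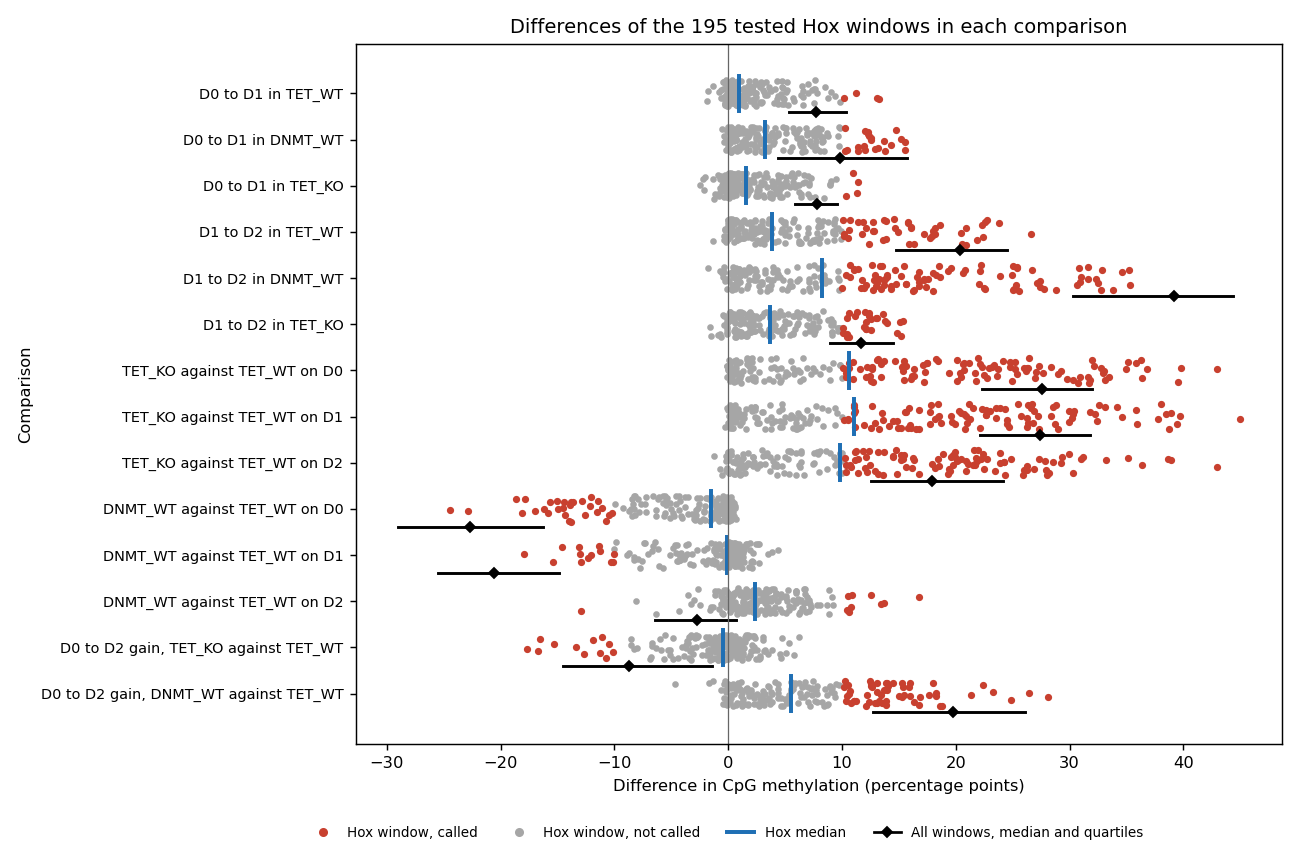
Differences of group means (percentage points) of the 195 tested Hox windows in the 14 comparisons, with the median of the Hox windows (line) and the median and quartiles of all windows (diamond and bar). The Hox medians, on the scale of deposited percentages, lie nearer 0 than the medians of all windows in all 14 comparisons, for example 10.6 against 27.5 for TET_KO less TET_WT on D0.

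The window with the largest knock-out difference on D0 lay at the end of Hoxc4 (chr15:103035844-103040912, 5069 bp). It stood at 5.43%, 2.00% and 4.71% in TET_WT and 41.3%, 44.8% and 54.8% in TET_KO. The lines were far apart, by 42.9 ± 2.25 points (adjusted p 6.23e-16, limma with Benjamini-Hochberg adjustment), and on D1 by 45.0 ± 2.25. In TET_WT it stayed at 7.75% to 10.0% on D1 and stood at 29.5% to 32.5% on D2, still below every naive TET_KO library. A Hoxd3 window of 1731 bp (chr2:74733857-74735587) showed the largest difference on D2, 17.1%, 17.5% and 19.9% in TET_WT against 57.8%, 58.4% and 67.3% in TET_KO. That is 43.0 ± 2.61 points (adjusted p 1.80e-14), after 39.8 ± 2.61 on D0. Hoxd3, a gene of the first neck vertebra, held 2 more of the 4 largest differences on D2, in windows a few kb away (chr2:74736588-74738840, 38.9 ± 2.19, and chr2:74738841-74740549, 36.4 ± 2.09). The Hoxa3 window at chr6:52185057-52189249 differed by 39.5 ± 2.45 on D0 and 38.6 ± 2.45 on D2. The Hoxa7 peak differed by 36.8 ± 2.66 on D0. On D1 a Hoxb7 window (chr11:96289410-96291459) differed by 39.4 ± 2.36 and the Hoxb3 window of 3006 bp by 38.9 ± 2.34. Every library of TET_KO was above every library of TET_WT in each of these windows on the days named. After centring, only 1 Hox window was called higher on D0 (3.69% of all windows), 1 on D1 (2.76%) and 8 on D2 (8.47%). At most 1 of the differences named for D0, and at most 1 of those for D1, therefore kept its call.

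The 3923 bp Hoxc13 window went another way. On D0 it stood at 1.35% in TET_WT and 14.0% in TET_KO, and on D2 at 29.7%, 33.8% and 28.9% in TET_WT and 33.8%, 31.3% and 27.3% in TET_KO. On D2 the libraries of the lines overlapped. DNMT_WT reached 36.9%, 35.2% and 42.2% there from 0.186% on D0.

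**Figure D5:**
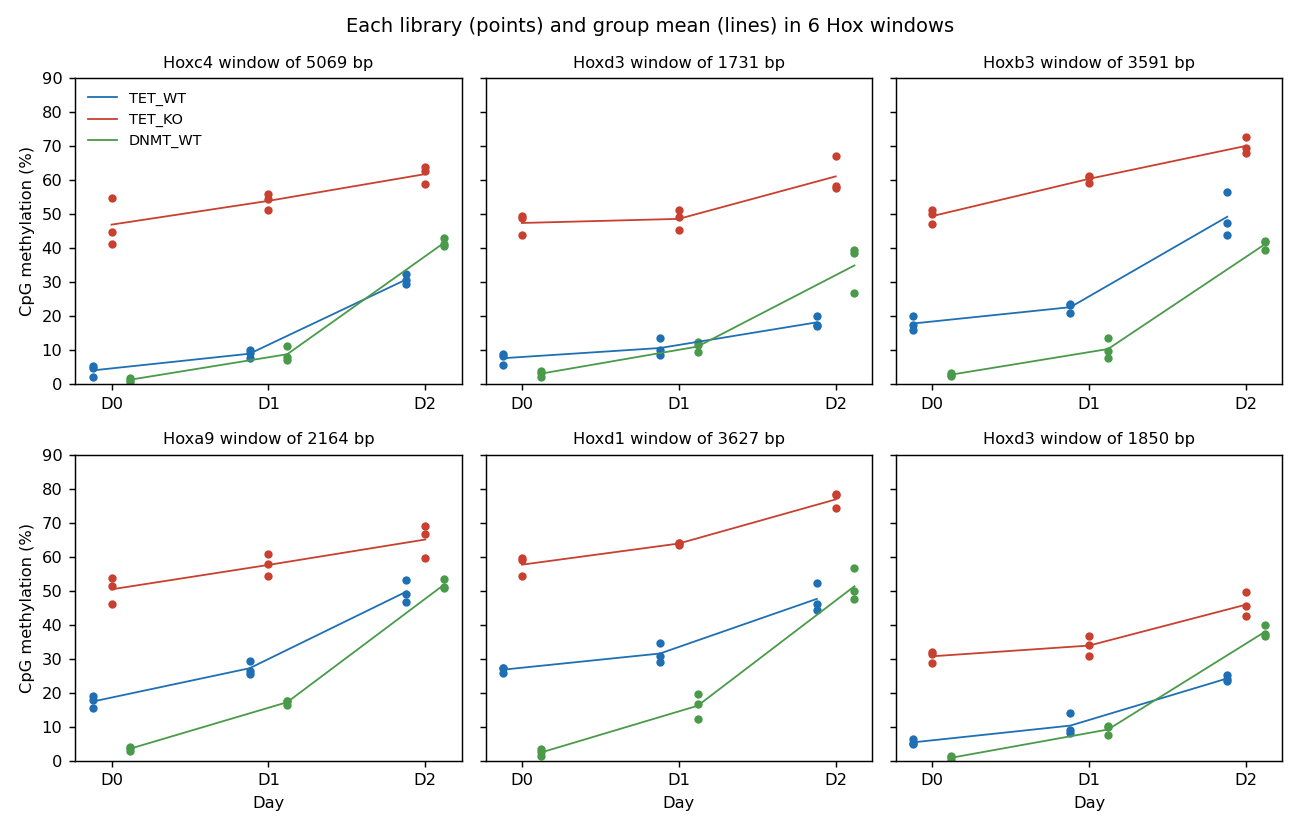
Methylation (percent) in each library (points) and group means (joined by a line over the days for each cell line) for 6 Hox windows in the 9 groups. In the Hoxc4 window of 5069 bp the naive TET_KO libraries (41.3% to 54.8%) lie above all TET_WT libraries (2.00% to 32.5%), while in the Hoxa9 window of 2164 bp the D2 libraries of TET_WT reach 53.4%.

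The gain from D0 to D2 was compared between lines as a difference of gains, tested in the same model. In TET_KO the gain was smaller than in TET_WT in 12 of 195 Hox windows (44.2% of all windows) and was called larger in 0 (2.50%), while at an unadjusted p under 0.05 (limma) 24 were smaller and 13 larger. After centring, 66 had the larger gain (17.9%). The median Hox gain was 5.26 points in TET_WT and 5.20 in TET_KO, and the median difference of gains was -0.474 points over Hox windows and -8.69 over all windows. The Hoxa9 window of 2164 bp differed most. It went from 15.4%, 19.1% and 17.8% to 46.8%, 53.4% and 49.2% in TET_WT, and from 46.1%, 51.6% and 53.7% to 69.0%, 66.8% and 59.6% in TET_KO. Its gain was 17.7 ± 3.23 points smaller in TET_KO (adjusted p 4.98e-05, limma with Benjamini-Hochberg adjustment). In the window shared by Hoxc4 and Hoxc5 the difference of gains was -16.7 ± 3.19 points, in the Hoxa7 peak -16.5 ± 3.76 and in a Hoxa3 window (chr6:52208947-52211675) -15.3 ± 2.52.

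Over Hox bodies DNMT_WT was the lower wild-type line on D0 and the higher on D2. On D0, 29 windows were lower in DNMT_WT than in TET_WT (88.9% of all windows), and on D1 13 were (85.6%), and these were the only calls of those days. On D2, 9 were higher (1.78%) and 1 was lower (10.5%). The higher calls of D2 were 1.61% of Hox windows under 1 kb, 4.04% at 1 to 3 kb and 11.8% at 3 kb and longer. Over all windows of these classes the shares were 0.974%, 4.46% and 1.39%, so at 1 to 3 kb they were alike. Median differences on D2 were 3.38 points over Hox windows against 0.465 over all at 1 to 3 kb. At 3 kb and longer they were 3.43 against -3.45. Without the 10-point limit, 91 of 195 Hox windows were higher on D2 (7.76% of all windows) and 3 lower (31.4%). After centring, 176 windows were higher on D0 (15.8% of all windows), 185 on D1 (16.0%) and 21 on D2 (4.14%). The D2 direction was the same on both scales. On D0 and D1 the centred direction was largely fixed by the low levels. The median of all windows was 25.3% in TET_WT and 2.41% in DNMT_WT on D0, and 33.8% and 12.7% on D1. Hox windows averaged 5.15% and 1.15%, then 7.26% and 5.54%. A window with little methylation in TET_WT cannot fall as far as these medians, so it comes out higher after centring. The median difference over Hox windows was -1.51, -0.0666 and 2.36 points, and over all windows -22.7, -20.6 and -2.74. The line and any difference in how its libraries were made cannot be told apart.

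On D0 DNMT_WT was under 5% in 195 of the 196 Hox windows, so its largest deficits had to lie where TET_WT was most methylated. The 3627 bp window of Hoxd1 stood at 27.5%, 25.8% and 27.2% in TET_WT and 1.33%, 2.59% and 3.33% in DNMT_WT. The lines did not overlap and differed by -24.4 ± 2.33 points (adjusted p 9.74e-11, limma with Benjamini-Hochberg adjustment), and on D1 by -15.4 ± 2.33. A Hoxa10 window (chr6:52236184-52239876) differed by -22.8 ± 1.94 on D0. The 4867 bp window of Hoxc4 differed by -18.7 ± 2.02 on D0 and -14.6 ± 2.02 on D1, and the 4095 bp window of Hoxb1 by -18.1 ± 2.08 and -18.0 ± 2.08. On D1 a Hoxd3 window (chr2:74715561-74720195) differed by -13.2 ± 2.10. After centring, the Hoxd1 difference of D0 was -1.51 points and that of Hoxa10 0.0717, and the other differences of both days lay between 3.08 and 7.90 points.

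Of the 9 windows higher in DNMT_WT on D2, 6 lay in HoxD. The Hoxd3 window of 1731 bp that separated TET_KO was the first of them, at 39.4%, 26.8% and 38.6% in DNMT_WT against 17.1%, 17.5% and 19.9% in TET_WT. The lines did not overlap, and the difference was 16.8 ± 2.61 points (adjusted p 1.57e-05, limma with Benjamini-Hochberg adjustment). A Hoxd3 window of 1850 bp (chr2:74713711-74715560) was higher by 13.7 ± 1.71 and a Hoxd8 window (chr2:74706468-74711114) by 13.4 ± 1.77. The 1 lower window, shared by Hoxd3 and Hoxd4 (chr2:74727596-74729221), stood at 13.5%, 9.76% and 14.9% in DNMT_WT against 24.9%, 22.3% and 29.8% in TET_WT, a difference of -12.9 ± 2.56 points (adjusted p 2.68e-04). The gain from D0 to D2 was larger in DNMT_WT in 57 Hox windows (82.7% of all windows), 20 of them in HoxD. After centring, 138 had the smaller gain (16.8%). The largest differences of gains were 28.1 ± 3.30 points in the 3627 bp window of Hoxd1, 26.4 ± 3.10 in the 2253 bp window of Hoxd3, 24.8 ± 2.51 in the Hoxd8 window and 23.3 ± 2.27 in a last Hoxd3 window (chr2:74747789-74749674).

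Start windows are given beside the start windows of all genes. Of 23 member start windows tested, 13 were higher in TET_KO than in TET_WT on D0, 13 on D1 and 11 on D2. Over all start windows the shares called higher were 66.5%, 66.0% and 58.5%. After centring, 18, 17 and 12 of the 23 were instead lower. From D1 to D2, 6 rose in TET_WT and 12 in DNMT_WT, against 61.5% and 70.5% of all start windows, and after centring 19 and 21 were lower. Shares over all start windows were not computed after centring. Whether the centred counts are particular to the members was not tested. On D2 the median member start window stood at 9.10% in TET_WT, 19.3% in TET_KO and 14.4% in DNMT_WT, and the median of all start windows at 36.6%, 58.2% and 34.7%.

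Around the genes, methylation was higher, in windows that were longer than those of the Hox bodies (median 1451 bp). These sets were not matched for length. The counts that follow are for TET_KO against TET_WT on D0, where 92.9% of all windows were called higher, and after centring most of these calls were lost or turned. The 53 windows between members of a cluster (median length 2478 bp) averaged 26.3% in TET_WT, 43.7% in TET_KO and 30.6% in DNMT_WT on D2, and 42 of them were called higher (after centring, 2 higher and 23 lower). The 187 windows within 100 kb outside the clusters (median length 4147 bp) averaged 44.1%, 61.8% and 44.3%, and 162 were called higher (11 higher and 45 lower after centring). The ParaHox and Evx genes (Evx1, Evx2, Gsx1, Gsx2, Pdx1, Cdx1, Cdx2 and Cdx4), homeobox genes that are neighbours or evolutionary sisters of the Hox genes, had 43 windows with a median length of 1375 bp. These averaged 19.8% in TET_WT and 31.1% in TET_KO on D2, and 24 were called higher (2 higher and 28 lower after centring). The 40 genes of Hox regulators and partners, from retinoic acid receptors and Pbx and Meis cofactors to Polycomb and Trithorax subunits, had windows with a median length of 4191 bp. The 698 tested ones averaged 48.0% and 63.2%, of which 574 were called higher (54 higher and 178 lower after centring).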

How the data were processed

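Methylation was measured by whole-genome bisulfite sequencing in 27 libraries. The submitters' processing notes name Trim Galore 0.6.6, cutadapt 2.3, Bismark 0.23.0 and the genome build GRCm38. The authors deposited 1 percent of methylated CpGs (0 to 100) per library and window, and those values were used as deposited. The coverage filter and how windows were filled are not given in the sources used here. The table holds no read counts, so the depth is unknown and no interval from counts can be given.

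Gene bodies came from RefSeq (GRCm38.p6). Hox members, gene lists, window classes and rules were chosen with earlier results of these data known. The fit covered the 444250 nuclear windows that had no missing value and was made with limma 3.58.1 (R 4.3.3; lmFit, eBayes with trend) with 1 mean for each of 9 groups and 18 residual degrees of freedom, and p-values were adjusted by Benjamini-Hochberg over all of them. Calls needed a difference of 10 points and an adjusted p below 0.05. Windows named with a test are the 4 called Hox windows with the largest absolute difference in each comparison, and windows named as levels are the highest and lowest of each cluster on D2 in TET_WT and TET_KO. The Hoxc13 window is named with further values chosen after they were seen. The comparison of Hox windows with bins of window length was added after values were seen. The fit was tested on simulated data. Tables were made in Python 3.11.15 with pandas 2.3.3 and numpy 2.4.6, and figures with matplotlib 3.10.9. No library pair shared more than 0.0111% identical values. Same-numbered libraries did not deviate together (108 correlations from -0.0549 to 0.0570), and the numbers were not taken to pair them. The alternatives were a minimum of 20 points, centring on library medians, logit values, no trend, a replicate block, windows with at least 2 values per group, leaving out each library, and other averages for gene levels.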

Additional observations from a re-analysis of the deposited data

Results flagged for a closer look

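Effects that differed between lines by a test of the difference itself are listed here as values (limma, Benjamini-Hochberg adjustment). Under the comparison of D0 to D2 gains, 12 of 195 Hox windows gained less in TET_KO than in TET_WT (44.2% of all windows), and 57 gained more in DNMT_WT than in TET_WT (82.7%). After centring on library medians both directions turned, with 66 larger gains in TET_KO and 138 smaller gains in DNMT_WT. The 4 largest differences of gains for TET_KO were -17.7 points in the Hoxa9 window, -16.7 in the window shared by Hoxc4 and Hoxc5, -16.5 in the Hoxa7 peak and -15.3 in the Hoxa3 window of 2729 bp. For DNMT_WT they were 28.1 points in the Hoxd1 window of 3627 bp, 26.4 in the Hoxd3 window of 2253 bp, 24.8 in the Hoxd8 window and 23.3 in the Hoxd3 window of 1886 bp. With 3 libraries per group, no search for single libraries far from their group was made.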

How the results depend on the processing

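With a minimum of 20 points in place of 10, the called Hox windows numbered 0, 0 and 0 from D0 to D1 and 11, 37 and 0 in the step to D2 (TET_WT, DNMT_WT and TET_KO), 62, 61 and 47 for TET_KO against TET_WT on D0, D1 and D2, 2, 0 and 0 for DNMT_WT against TET_WT, and 0 and 6 for the differences of gains of TET_KO and DNMT_WT. The shares of all windows called at 20 points were, in the same order, 0.105%, 9.86% and 0.0160%, then 52.1%, 90.5% and 2.86%, then 81.6%, 81.0% and 40.5%, then 61.1%, 52.9% and 0.982%, then 7.80% and 49.1%. Centred on library medians, the calls in the same order were 2, 28 and 4, then 161, 181 and 87, then 136, 136 and 113, then 176, 185 and 21, then 66 and 138, and the prevailing direction turned in all of these except DNMT_WT against TET_WT on D2. Of the 56 named differences, 9 kept their call after centring, 36 lost it, and 11 lost it with a change of sign. With the minimum of 20 points 26 kept it and 30 lost it. Those that changed sign after centring were, from D1 to D2 in DNMT_WT, Hoxb3 (-5.19 points), Hoxd1 (-5.27), Hoxa9 (-5.86) and Hoxd3 with Hoxd4 (-6.63). In DNMT_WT against TET_WT on D0 they were Hoxa10 (0.0717), Hoxc4 (4.24) and Hoxb1 (4.79), and on D1 Hoxb1 (3.08), Hoxd1 (5.67), Hoxc4 (6.49) and Hoxd3 (7.90). The logit scale, no trend, a replicate block and at least 2 values per group gave the same counts as printed in the report, and the replicate block changed no call of a named window. Leaving out each library in turn gave 3 to 6, 21 to 23 and 3 to 6 calls in the step to D1, 44 to 50, 85 to 90 and 26 to 31 in the step to D2, 51.8% to 54.4%, 50.8% to 51.8% and 48.2% to 50.3% of the 195 windows for TET_KO, 27 to 30, 10 to 18 and 8 to 11 for DNMT_WT, and 8 to 13 and 54 to 60 for the gains. With the block these were, for example, 103 for TET_KO against TET_WT on D0, 45 from D1 to D2 in TET_WT, and 12 and 57 for the gains. The deposited percentages carry no depth, so precision per window is known only from the spread of 3 libraries. Gene bodies were taken without regard to strand.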
